A study of Mus musculus with 8 samples.

Results

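The array carries 1836 probes for long intergenic non-coding RNA (lincRNA), found here as the non-control probes whose names contain lincRNA in any letter case and that are not rows of the deposited value table. They were chosen by name and not by any measured value, and they are 1836 of 60915 non-control probes. The deposited value table holds 22032 other probes, and none of its names contains lincRNA. The names fall into 3 families: 1104 begin with human, 649 begin with mouse and 83 begin with MM9LINCRNAEXON. Before a suffix that all the names share, each name holds a number and a sign, 921 with plus and 915 with minus, read here as the strand of the transcript the probe was made for. Of the 960 numbers, 876 have a probe of each sign and 84 have 1 probe. Every probe is printed on 1 spot. The files used here pair these probes with no gene, position or probe sequence, and 0 of the names matched a RefSeq symbol or synonym, so the probes are given by their identifiers and no sequence is printed.

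The study set 4 arrays of hippocampal RNA from mice given propofol, an intravenous anaesthetic that acts on GABA-A receptors, against 4 arrays from mice given its lipid vehicle, to ask how the RNA profile of the developing hippocampus differs after the drug. The mice were 7 days old and received 50 mg/kg of propofol or 50 mg/kg of intralipid into the abdomen, with 3 h of exposure and then 3 h of washout before the tissue was taken. The labels give no strain, sex or genotype and leave unsaid if each array is of 1 animal or of a pool, so p-values measure only the spread between these arrays. Markers of hippocampal neurons, glia, vessels, choroid plexus and blood were not read here, and the labelled tissue was not checked against them. In whole tissue, fewer cells of a type and less RNA per cell cannot be told apart. Slide 1 carried the 4 vehicle arrays and slide 2 the 4 propofol arrays, and an effect of the slide cannot be told apart from one of propofol.

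A lincRNA is a long transcript from between protein-coding genes that is not translated into protein. Many are spliced and polyadenylated like messenger RNA, but they are often present at low levels, often stay in the nucleus, and are often restricted to a few tissues, brain among them. Some act on chromatin or on neighbouring genes. Large sets of them were first mapped as stretches of chromatin with the histone marks of active promoters and transcribed gene bodies, and such marks do not show which strand is transcribed. Probes of opposite sign with the same number therefore ask, for the same catalogue entry, whether RNA of either strand was present.

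Most lincRNA probes did not reach detection on 4 of the 8 arrays of neonatal hippocampus. Detection is the call of the scanner software that a spot lies well above background, and 737 of the 1836 probes (40.1%) had that call on at least 4 of the 8 arrays. A core of 487 probes (26.5%) was detected on all 8 arrays, and 725 (39.5%) were detected on none. The remaining probes were split between detection on 1 to 3 arrays (374 probes) and on 4 to 7 arrays (250 probes). Of the 22032 probes in the value table, 96.3% were detected on at least 4 arrays and 87.4% on all 8. That table is no neutral standard for detection, since it holds 0 probes detected on fewer than 2 arrays. Over all 60915 non-control probes, 78.6% were detected on at least 4 arrays. Among the 37047 probes that are neither lincRNA probes nor in the value table, the share was 69.9%.

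The share of lincRNA probes detected was 39.4%, 46.1%, 40.0% and 52.3% on vehicle replicates 1 to 4, and 35.6%, 32.4%, 35.2% and 41.4% on propofol replicates 1 to 4. The groups overlapped, since propofol replicate 4 lay above vehicle replicates 1 and 3. The probes of the value table followed the same direction, with 94.9% to 99.1% detected on the vehicle arrays and 90.9% to 96.8% on the propofol arrays. The dimmest spot on the array read 3.30 to 3.93 units of signal in vehicle and 4.44 to 7.60 units in propofol, without overlap, and the part of this floor in the lower propofol shares was not tested. The calls also include false ones. Of 15 probes named as negative controls, 3 were detected on at least 4 arrays, 2 of them on all 8, and on single arrays 15.3% to 27.3% of the 300 negative control spots had the call. When a spot had instead to exceed the 95th percentile of the negative control spots on its array, 253 lincRNA probes (13.8%) passed on at least 4 arrays, against 72.3% of the value table.

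Detected shares lay farther apart between the name families than between the strands. On at least 4 arrays, 425 of the 1104 human-named probes (38.5%), 265 of the 649 mouse-named probes (40.8%) and 47 of the 83 exon-named probes (56.6%) were detected. This order held on each of the 8 arrays taken singly. The human-named share ran from 30.8% to 50.4% over the arrays, the mouse-named share from 32.0% to 53.0% and the exon-named share from 53.0% to 72.3%. By sign, 40.8% of the plus and 39.5% of the minus probes were detected on at least 4 arrays. The differences between families and between signs were not tested.

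The 876 numbers with a probe of each sign show how often RNA was detected from a single strand. Both probes were detected on at least 4 arrays for 156 numbers (17.8%), exactly 1 of them for 386 (44.1%) and neither for 334 (38.1%). Among the single-strand cases, the plus probe was the detected one at 198 numbers and the minus probe at 188. At 148 numbers the contrast was complete, with 1 probe detected on all 8 arrays and its partner on none. Where the plus probe was detected, the minus probe was also detected in 44.1% of 354 cases, and where it was not, in 36.0% of 522 cases. These shares were 45.9% and 31.0% for the 547 human-named pairs and 39.2% and 44.4% for the 317 mouse-named pairs. The pairs share arrays and the probes of a pair differ in sequence, so the shares are a description.

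In 4 pairs the probes lay farthest apart, and these show how complete the contrast could be. Signal is given in units of the scanner; it depends on the probe's sequence as well as on the amount of RNA, so values of different probes do not measure relative amounts. The probe humanlincRNA1739+_P1 read 30331, 62774, 139693 and 58231 units on vehicle replicates 1 to 4 and 155189, 84688, 41891 and 56047 units on propofol replicates 1 to 4. Its partner humanlincRNA1739-_P1 read 3.40 to 4.44 units in vehicle and 4.68 to 8.45 units in propofol and was detected on 0 arrays. Every spot of the partner thus lay near the floor, in both groups.

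The reverse arrangement held for mouselincRNA0161, whose minus probe mouselincRNA0161-_P1 read 97775 to 187382 units in vehicle and 106074 to 195000 units in propofol. The plus probe mouselincRNA0161+_P1 read 7.35 to 19.2 units in vehicle and 9.73 to 26.7 units in propofol and was detected on vehicle replicate 1 alone. The minus probe humanlincRNA0267-_P1 read 10653 to 32889 units in vehicle and 16113 to 39849 units in propofol, with its plus partner humanlincRNA0267+_P1 at 3.35 to 4.03 units and 4.69 to 8.42 units. For humanlincRNA0847-_P1 the signal was 9500 to 48187 units in vehicle and 12054 to 40446 units in propofol, and its plus partner humanlincRNA0847+_P1 was detected on 0 arrays. In all 4 pairs the arrangement of bright and dark strand was the same in propofol and vehicle. The pairs were chosen for the largest gap in mean level over the 8 arrays, so this likeness follows from the choice.

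Levels are given from here on as log2 of the signal minus log2 of the 75th percentile of the array, so that 0 is the brightness of the probe at that percentile. A probe entered the comparison of the groups if it was detected on at least 4 arrays, and 732 lincRNA probes did, after 5 were dropped for having fewer than 2 unflagged spots in a group. The median level of these 732 was -3.71, against -0.94 for the 21201 tested probes of the value table. The middle 50% of the tested lincRNA probes lay between -4.71 and -2.21. Only 71 of them lay above 0, of which 43 were human-named, 22 mouse-named and 6 exon-named.

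The 6 probes with the highest mean signal of the 732 are described by array. Exon probe MM9LINCRNAEXON10664+_P1 read 8.12, 8.39, 8.27 and 8.08 on vehicle replicates 1 to 4 and 8.32, 8.23, 7.98 and 7.91 on propofol replicates 1 to 4. The groups overlapped and the arrays lay close together, at a vehicle mean of 8.22 ± 0.14 (SD, n = 4) and a propofol mean of 8.11 ± 0.20 (SD, n = 4). The next probe was mouselincRNA0161-_P1, whose partner is described above, with a vehicle mean of 7.25 ± 0.26 (SD, n = 4) and a propofol mean of 7.20 ± 0.32 (SD, n = 4). Probe mouselincRNA1606-_P1 was far less even, with 6.07, 7.00, 8.15 and 6.30 on the vehicle arrays and 8.09, 7.38, 5.93 and 7.12 on the propofol arrays. In each group its highest and lowest arrays lay more than 2 apart on the log2 scale, and the groups covered much the same range. The others were humanlincRNA2163-_P1 at 6.29 ± 0.43 and 6.42 ± 0.31, humanlincRNA1739+_P1 at 6.25 ± 0.66 and 6.29 ± 0.76, and MM9LINCRNAEXON11711+_P1 at 5.83 ± 0.59 and 5.92 ± 0.42 in vehicle and propofol (SD, n = 4 each). None of these 6 passed the test between the groups (adjusted p from 0.901 to 0.990 in limma).

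Bright lincRNA probes occurred both with and without signal from the other strand. Of the 71 probes above 0, 68 had a partner of opposite sign, and 32 of the partners (47.1%) were detected on at least 4 arrays, 27 of them on all 8. A further 23 partners were detected on no array and 13 on 1 to 3 arrays. In 4 pairs both probes lay above 0. Among the 6 brightest, the partners of MM9LINCRNAEXON10664+_P1, mouselincRNA1606-_P1, humanlincRNA2163-_P1 and MM9LINCRNAEXON11711+_P1 were detected on all 8 arrays.

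The spread between arrays of a group had a larger median for lincRNA probes than for the probes of the value table, and at matched levels the medians parted at the bright end. The pooled SD within groups had a median of 0.41 on the log2 scale over the 732 lincRNA probes and 0.25 over the value table. With a normexp background correction these medians were 0.21 and 0.20, while for probes above a level of 0 they were 0.47 and 0.20. Dim probes vary more, so the spread was also read at matched levels. Between -5 and -4 the medians were 0.45 for 204 lincRNA probes and 0.45 for 1831 value-table probes, and between -4 and -3 they were 0.32 for 156 and 0.35 for 2369. Above -2 they parted, with 0.29 for 60 lincRNA probes against 0.23 between -2 and -1, and 0.36 for 30 against 0.22 between -1 and 0. Above 0 the median SD was 0.49 for 71 lincRNA probes and 0.21 for 8293 value-table probes. An SD over 0.5 was found for 34 of those 71 lincRNA probes (47.9%) and for 9.86% of the bright value-table probes. The difference between these classes was not tested.

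Many of the bright lincRNA probes were highest on the same arrays of a group. Relative to the mean of their group, their median deviation was -0.11, 0.10, 0.33 and -0.12 on vehicle replicates 1 to 4 and 0.25, 0.25, -0.19 and -0.34 on propofol replicates 1 to 4. Vehicle replicates 2 and 3 were the highest pair of their group for 31 of 62 bright lincRNA probes with a value on every array (50.0%), and propofol replicates 1 and 2 for 29 (46.8%). Among the bright probes of the value table these shares were 15.9% and 14.6%. The pattern was noticed in these data, these probes share arrays, and their dependence on each other was not tested. The log2 signal of the mouse Pgk1 control spot with suffix 3 minus that with suffix 5, read as the ends of the transcript, was 8.33, 8.65, 8.97 and 8.19 on the vehicle arrays and 8.90, 8.77, 8.33 and 8.32 on the propofol arrays. The same arrays were the highest pair of their group in this contrast, and its part in the spread of the lincRNA probes was not tested.

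Among lincRNA probes of wide spread, these arrays were the highest pair less often than among the bright ones. Of 37 tested lincRNA probes with a pooled SD over 1 and a value on every array, vehicle replicates 2 and 3 were the highest pair for 8 (21.6%) and propofol replicates 1 and 2 for 15 (40.5%). Among the tested lincRNA probes not above a level of 0, which include wide ones, these shares were 9.23% and 17.5%. The 4 widest of the tested lincRNA probes are given as examples. In all 4, propofol replicates 1 and 2 were the highest pair of their group. Vehicle replicates 2 and 3 were so for humanlincRNA0341-_P1 and humanlincRNA0970-_P1, those with a value on every array. Probe humanlincRNA0341-_P1 read -1.50, 2.04, 2.27 and -1.54 on vehicle replicates 1 to 4 and 2.91, 1.49, -0.97 and -1.70 on propofol replicates 1 to 4. Each group held 2 high and 2 low arrays, so the pooled SD was 2.13 while the means differed by 0.11 (SE 1.25, adjusted p = 0.990 in limma). Probe humanlincRNA0970-_P1 read -3.74, 0.98, -1.74 and -3.14 in vehicle and 1.46, -1.68, -2.52 and -2.96 in propofol. Probe mouselincRNA1054-_P1 read -2.07, 1.92 and -1.03 on vehicle replicates 1, 2 and 4, with replicate 3 dropped as an outlier spot, and 3.43, 0.49, -1.51 and -1.65 on the propofol arrays. It had the widest spread of the 732 probes, with a pooled SD of 2.26. The last of the 4, humanlincRNA2091+_P1, read 2.12 on propofol replicate 1 and -3.15 to -2.46 on the other propofol arrays, against -3.14 to -0.24 on the 3 vehicle arrays kept. For these 4 probes the 95% intervals of the difference between groups reached from 0.129-fold to 13.9-fold, so these arrays could not resolve a change of several-fold.

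The comparison of propofol with vehicle found no lincRNA probe past the threshold. Of the 732 tested probes, 0 had an adjusted p under 0.05 in limma, adjusted by Benjamini-Hochberg across the 47777 probes tested on the array, of which 0% were called. The smallest adjusted p among them was 0.426. At an unadjusted p under 0.05 there were 52 lincRNA probes (7.10%), against 7.86% of all probes tested, with 14 higher (1.91%, against 3.56%) and 38 lower (5.19%, against 4.31%). With a difference of at least 1.5-fold as well there were 23 (3.14%, against 2.67% of all probes), of which 12 were higher in propofol (1.64%, against 1.31%) and 11 lower (1.5%, against 1.36%). The groups did not overlap for 21 lincRNA probes, or 2.87% against 5.42% of all probes, where 2.44% were higher and 2.98% lower. Of these 21 probes, 5 were higher and 16 lower in propofol. With all 8 arrays, these shares lie near or below those of all probes and single out no response of the lincRNA probes.

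By family, the 423 human-named probes had 7 higher (1.65%) and 8 lower (1.89%) at an unadjusted p under 0.05 with 1.5-fold, where all probes had 1.31% and 1.36%. The 262 mouse-named probes gave 4 higher (1.53%) and 3 lower (1.15%), and the 47 exon-named probes 1 higher (2.13%) and 0 lower. By sign, 5 plus probes were higher (1.34%) and 2 lower (0.536%), and 7 minus probes were higher (1.95%) and 9 lower (2.51%). The balance depended on single arrays. Without propofol replicate 1 there were 6 lincRNA probes higher (0.821%, against 1.75% of all probes) and 50 lower (6.84%, against 2.18%). Without vehicle replicate 3 there were 10 higher (1.37%, against 1.48%) and 35 lower (4.80%, against 2.27%). Without propofol replicate 4 there were 8 higher (1.1%, against 0.972%) and 27 lower (3.70%, against 2.17%). Counts without each of the other arrays follow. Without vehicle replicates 1, 2 and 4 in turn, 9, 15 and 13 were higher and 11, 8 and 5 lower. Without propofol replicates 2 and 3 in turn, 7 and 16 were higher and 9 and 7 lower. Shares over all probes were not computed without these other arrays, so these counts are read neither as an excess nor as its absence. No difference between lincRNA and other probes was tested in these counts.

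Most differences were small. The median log2 difference of the tested lincRNA probes was -0.16, against -0.04 over all tested probes, and the propofol mean was the higher for 218 probes and the lower for 514. The passing probes include ones that passed through the arrays of a single group, so this median is no support for a shift. With no rule on detection the median turned to 0.019. At matched levels the medians were -0.21 for lincRNA and -0.21 for value-table probes under a level of -5, and -0.20 and -0.14 between -5 and -4. Between -3 and -2 they were -0.17 and -0.081, and above 0 they were -0.074 and 0.064. Single differences ran from -1.05 to 2.25, and 11 probes (1.5%, against 0.883% of all probes) differed by 2-fold or more, of which 10 were higher in propofol. Over all 47777 tested probes, 255 were higher and 167 lower by 2-fold or more. The difference in this balance was not tested. The median 95% interval reached 1.5-fold to either side for lincRNA probes and 1.32-fold for value-table probes. A change of 2-fold or more lay outside the interval for 464 of the 732 lincRNA probes (63.4%), and one of 1.5-fold or more for 143 (19.5%).

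Among probes above the median level whose groups do not overlap, the 2 in each direction with the smallest unadjusted p are given as examples. Since the choice asks for groups that do not overlap, their separation is no added support. Probe mouselincRNA0664-_P1 read -1.02, -0.86, -1.16 and -1.05 on vehicle replicates 1 to 4 and -1.54, -1.62, -1.99 and -1.52 on propofol replicates 1 to 4. Its log2 difference was -0.65 (SE 0.15, adjusted p = 0.426 in limma), with a 95% interval from 0.507-fold to 0.803-fold, and its plus partner was detected on 1 array. Probe humanlincRNA1643+_P1 read -3.48, -2.98, -3.36 and -3.29 in vehicle and -4.01, -4.08, -4.04 and -3.67 in propofol. It differed by -0.67 (SE 0.16, adjusted p = 0.426 in limma), and its partner was detected on 0 arrays. Both probes were detected on all 8 arrays. With any 1 array left out, their log2 differences ran from -0.70 to -0.54 and from -0.77 to -0.57. Groups that do not overlap cannot change direction when 1 array is left out, so the kept sign is no added support.

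In the other direction, mouselincRNA0733-_P1 read -4.02, -3.05, -2.54 and -2.40 in vehicle and -1.86, -2.15, -2.31 and -1.73 in propofol. The difference of 0.99 (SE 0.34, adjusted p = 0.552 in limma) leaned on vehicle replicate 1, the lowest array, and was 0.65 without it. Probe humanlincRNA2350-_P1 read -4.22, -2.38, -2.64 and -2.42 in vehicle and -1.53, -1.81, -2.24 and -1.87 in propofol. Its difference of 1.05 (SE 0.40, adjusted p = 0.591 in limma) was 0.62 without vehicle replicate 1. The partners of both probes were detected on 4 arrays.

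Detection calls moved toward the vehicle arrays, in lincRNA probes as in others. Of the 1836 probes, 463 (25.2%) were detected on more vehicle than propofol arrays, 109 (5.94%) on more propofol arrays and 1264 on equal numbers. Over all 60915 probes the shares were 14.2% and 2.57%. A probe detected on all 8 arrays or on none cannot differ between the groups. Detection on all 8 arrays held for 26.5% of lincRNA probes and 68.7% of all probes, and on none for 39.5% and 12.5%. The shares compared here thus depend on how many probes lie near the detection limit. Detection on every vehicle array with none in propofol was found for 11 lincRNA probes (0.599%) and for 0.259% of all probes, and the reverse for 0 probes. The 11 had a median vehicle level of -5.07, where the dimmest detected probe of an array had a level of -5.65 to -5.26 on the vehicle and -5.38 to -4.68 on the propofol slide.

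The 4 of those 11 probes with the largest differences are given as examples. Since the choice asks for detection on the vehicle arrays alone, their lower propofol levels are no added support. Probe humanlincRNA2349-_P1 read -4.69, -5.01, -5.11 and -4.99 in vehicle and -6.51, -5.64, -5.51 and -5.30 in propofol, where it was not well above background. Against the limit its bound was 1.08-fold lower in propofol, while the measured means of -4.95 and -5.74 had an adjusted p of 0.544 in limma. Probe humanlincRNA1219-_P1, with means of -5.04 and -5.98, had a bound of 1.02-fold lower by the same measure (adjusted p = 0.590 in limma). For humanlincRNA2106+_P1 and humanlincRNA1160+_P1 the limit allows no fold, and the vehicle mean of the latter leaves out replicate 1, whose spot was an outlier. The bound is the vehicle mean over the mean, in propofol, of the higher of the probe's own value and the dimmest detected value on that array. It takes no account of the spread between arrays, and the dimmest detected value differed between the slides.

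The rule of detection on at least 4 arrays divided probes that look alike. The 2 dimmest probes just inside it were mouselincRNA1098-_P1, at vehicle levels of -7.91 to -4.54 and propofol levels of -7.63 to -4.89, and humanlincRNA0399-_P1, at -7.86 to -5.29 and -6.91 to -4.39. The 2 brightest just outside it, each detected on 3 arrays, were mouselincRNA0166+_P1, at -5.44 to -4.57 and -5.76 to -4.94, and humanlincRNA2252-_P1, at -6.07 to -4.83 and -6.14 to -2.24. The levels of probes inside and outside thus overlapped.

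With no rule on detection, 311 of 1831 lincRNA probes had an unadjusted p under 0.05 (17.0%, against 10.2% of all probes), with 245 higher in propofol (13.4%, against 6.29%) and 66 lower (3.60%, against 3.91%). Among the 725 lincRNA probes detected on no array, 228 were higher (31.4%) and 9 lower (1.24%) at that level. These shares were not computed over all 7633 probes detected on no array, so they are no result about lincRNA probes. The dimmest spot was also brighter on every propofol array than on any vehicle array, as given above, and its part in these 228 probes was not tested. The adjusted threshold was still passed by 0 lincRNA probes in limma.

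Between arrays, the levels of the 701 tested lincRNA probes with a value everywhere correlated at 0.916 to 0.970 over the 28 pairs of arrays, and those of 20827 value-table probes at 0.972 to 0.990. These are correlations across probes of a wide range of brightness, which are not independent replicates. The 75th percentile of the signal ran from 656 to 1006 units, no non-control spot was saturated, and the number of arrays limits the precision.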

How the data were processed

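Cy3-labelled RNA depleted of ribosomal RNA was hybridized to 1-colour arrays, per the labels' protocols. Per the file headers, the scanner output was made with version 11.0.1.1 of Agilent Feature Extraction, which gives an intensity after background subtraction for each spot, with detection and outlier calls as 0 or 1 flags. The deposited value table of log2 intensity, whose normalization is not given in the sources used here, served only to name its 22032 probes. Spots named as negative controls and outlier spots (0.413%) were left out. Levels were the log2 processed signal less that of the 75th percentile on the array. Probes detected on at least 4 of 8 arrays, with 2 unflagged values per group, entered a two-sided moderated comparison (limma 3.58.1, R 4.3.3), whose p-values were adjusted by Benjamini-Hochberg across every tested probe of the array. Summaries used Python 3.11.15. The fit was tested on simulated data. Replicate numbers were not taken as pairs in the main comparison. Same-numbered arrays correlated from -0.33 to 0.22 in their deviations, which are too few values to exclude a pairing.

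The probes, lists and measures were chosen with earlier results of these data known. Named probes followed a rule: 2 per direction with separate groups and an above-median level, the 6 brightest, the 4 widest in spread, 2 on either side of the detection rule, 4 detected in 1 group only, and 4 pairs farthest apart. No number had over 2 probes, and no probe carries the name of a known lincRNA such as Malat1 or Meg3. Other settings tried were quantile and common-percentile normalization, normexp correction of the median signal, other detection rules, an intensity trend, a replicate block and leaving out each array. The alternatives for the spread of bright probes were added after seeing the data.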

Additional observations from a re-analysis of the deposited data

Results flagged for a closer look

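Of 47 groups of 4 values examined, 5 held a value far from the other 3. Chance gives about 1 in 20 for independent groups taken without choice. These probes share arrays and were chosen partly for wide spread or for their detection, so that rate is no standard for them. Probe humanlincRNA2091+_P1 stood at 2.12 on propofol replicate 1, against -3.15 to -2.46 on the other propofol arrays. Probe humanlincRNA2350-_P1 stood at -4.22 on vehicle replicate 1, against -2.64 to -2.38 on the other vehicle arrays. Probe humanlincRNA1643+_P1 stood at -3.67 on propofol replicate 4, against -4.08 to -4.01. Probe mouselincRNA1098-_P1 stood at -7.91 on vehicle replicate 3, against -5.10 to -4.54. Probe humanlincRNA1160+_P1 stood at -6.80 on propofol replicate 3, against -5.65 to -5.47.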

How the results depend on the processing

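Each alternative gave 0 lincRNA probes past the adjusted threshold in limma (smallest adjusted p from 0.275 to 0.926, with 30 to 311 probes at an unadjusted p under 0.05). By the unadjusted rule 23 of 732 probes were counted (3.14%, against 2.67% of all probes). With no detection rule there were 78 of 1831 (4.26%, against 3.61%). There were 14 of 482 with detection on all 8 arrays, 5 of 732 with normexp, 34 of 732 with the replicate block, and 16 to 56 with 1 array left out. Quantile normalization gave 15 higher and 5 lower, and the intensity trend 12 and 5. Apart from the shares given here and above, none was computed over all probes, so these counts are no result about lincRNA probes. The median log2 difference was -0.16, 0.019 with no detection rule, and -0.23 to -0.08 with 1 array left out. The median SD was 0.41, 0.49 with no rule, 0.33 with all 8 arrays, 0.21 with normexp, where the value table gave 0.20, and 0.38 to 0.42 with 1 array left out. For bright lincRNA probes it was 0.42 to 0.49 under every alternative run. The 737 detected probes became 487 on all 8 arrays, 1111 on at least 1 array and 253 above the negative control percentile. Of the 22 named tested probes, 11 changed sign in at least 1 alternative. The 4 comparison examples were not among them, but they were chosen for groups that do not overlap. Leaving out 1 array could not change their sign. With quantile normalization humanlincRNA1739+_P1 turned to -0.085 and humanlincRNA0847-_P1 to -0.042. With 1 array left out, the ranges that crossed 0 were -0.18 to 0.078 for mouselincRNA0161-_P1, -0.073 to 0.67 for mouselincRNA1606-_P1, -0.016 to 0.26 for humanlincRNA2163-_P1, -0.29 to 0.34 for humanlincRNA1739+_P1, -0.19 to 0.26 for MM9LINCRNAEXON11711+_P1, -0.50 to 1.74 for mouselincRNA1054-_P1, -0.71 to 0.82 for humanlincRNA0341-_P1, -1.16 to 0.79 for humanlincRNA2091+_P1, -0.47 to 1.45 for humanlincRNA0970-_P1, -0.017 to 0.44 for humanlincRNA0267-_P1 and -0.21 to 0.39 for humanlincRNA0847-_P1. The causes were not tested.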
